A study of Ovis aries with 2 samples.

Results

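The loci described here are transcribed regions of sheep subcutaneous fat that overlapped between 2 separately assembled libraries but had no matched pair. Start and end of every locus were taken from both deposited tables. A pair was made where 2 loci, 1 from each table, were each other's best partner and shared at least 80% of the longer span, with ties dropped. A locus was kept here when it overlapped the other table by at least 1 bp, had no such pair, spanned at least 1000 bp and stood at 1 FPKM or more. FPKM is the number of sequenced fragments scaled to transcript length and to library size. This gave 3775 of 34927 loci in the thin-tailed library (10.8%) and 3844 of 36511 in the fat-tailed library (10.5%), 7619 of 71438 in all. The loci were thus chosen by their positions and FPKM, so both are given as a description and nothing was tested on them.

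Both libraries hold poly(A) RNA from subcutaneous fat of Iranian native sheep breeds, 1 thin-tailed and 1 fat-tailed, with no treatment in either. According to the labels, both groups of lambs were weaned at 90 days, ate 1 common diet freely for 120 days and were killed at 7 months. Which library is fat-tailed rests on the word Fat in its title, a word that also names the tissue in the source label of both libraries, so the direction of every difference depends on that reading. Each tail type had 1 library and no replicate. The sources used here do not say how many animals stand behind a library, nor the breeds, the genome build or the total depth. In bulk tissue, fewer cells of a type and less RNA per cell cannot be told apart.

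A locus in such a table is the stretch between the outermost ends of overlapping reconstructed transcripts. Transcript ends move when a gene uses another start site or another polyadenylation site, and introns that are retained or spliced out change which exons are joined. Assembly adds its own breaks, because a stretch without fragments splits 1 transcript into pieces, and because neighbouring or overlapping genes can be joined into 1 locus. The tables give no strand, so loci on opposite strands could share fragments, and they give no gene names. None of the 14363 and 15268 Ensembl identifiers was found in the RefSeq gene table used, so nuclear loci are named by position, counted from 1, with no build named. Markers of adipocytes, muscle, endothelium and blood could not be looked up for the same reason, and the labelled tissue was not checked.

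Most clusters with loci of both tables held 1 locus on each side, mostly with differing ends. Clusters in which 1 locus faced several were the smaller part. Overlapping loci of both tables were joined into 4762 clusters, and 2217 of these held at least 1 locus of each table. In 1775 of them, 1 thin-tailed locus met 1 fat-tailed locus. A further 221 held 1 thin-tailed and several fat-tailed loci, 128 held several thin-tailed and 1 fat-tailed locus, and 93 held several of both. The remaining 2545 clusters held loci of 1 table, 1290 with thin-tailed loci and 1255 with fat-tailed ones. In 349 clusters 1 locus thus faced several, and these are called splits below. The several loci overlapped each other in 54 of the 221 and 71 of the 128, so not all were 1 locus cut into parts. Of the 7619 loci, 37 thin-tailed and 35 fat-tailed ones were in the set because their best partner was tied.

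The rule left some overlapping loci aside. Of 5538 thin-tailed loci that overlapped the fat-tailed table without a pair, 107 were listed at 0, 141 lay between 0 and 1 FPKM and 1515 were shorter than 1000 bp. Of 6871 in the fat-tailed table, 139 were listed at 0, 238 lay below 1 FPKM and 2650 were too short. More fat-tailed than thin-tailed pieces therefore fell under the span minimum.

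Loci of the set, which overlapped the other table without a pair, were short and modest in level. Their median span was 2240 bp (quartiles 1483 and 4930.5) for thin-tailed loci against 1771.5 bp (1306 and 3128.75) for fat-tailed ones. Paired loci that met the same minimum had median spans of 16549 and 15245 bp. The median level was 4.58 FPKM (2.48 to 10.2) and 6.70 FPKM (3.37 to 14.6), against 9.25 and 9.81 FPKM for the paired loci. The highest thin-tailed level was 11770 FPKM and the highest fat-tailed level 16892 FPKM, and 171 and 159 loci stood at 100 FPKM or more. The deposited interval had a median half-width of 24.6% and 22.7% of the FPKM, against 15.7% and 16.3% for paired loci.

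Among loci of 1 FPKM and 1000 bp or more, 24.8% of 15216 thin-tailed loci and 26.6% of 14435 fat-tailed loci belonged to the set. Another 418 and 356 overlapped no locus of the other table and are not in it. Between 1000 and 2000 bp, the set held 1636 of 3275 thin-tailed loci and 59.0% of the fat-tailed ones. Between 2000 and 5000 bp its shares were 46.7% and 39.8%. Above that they fell to 11.9% and 11.1% up to 20000 bp, and to 7.85% and 4.47% from 100000 bp. By level, 33.6% and 28.4% of loci between 1 and 3 FPKM belonged to the set, against 14.8% in both libraries at 100 FPKM or more. The libraries differed most between 10 and 30 FPKM, with 16.4% of thin-tailed against 26.1% of fat-tailed loci. Few of these loci carried an Ensembl identifier, 37 (0.980%) and 89 (2.32%), against 6.29% and 7.30% of the paired loci.

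**Figure D1:**
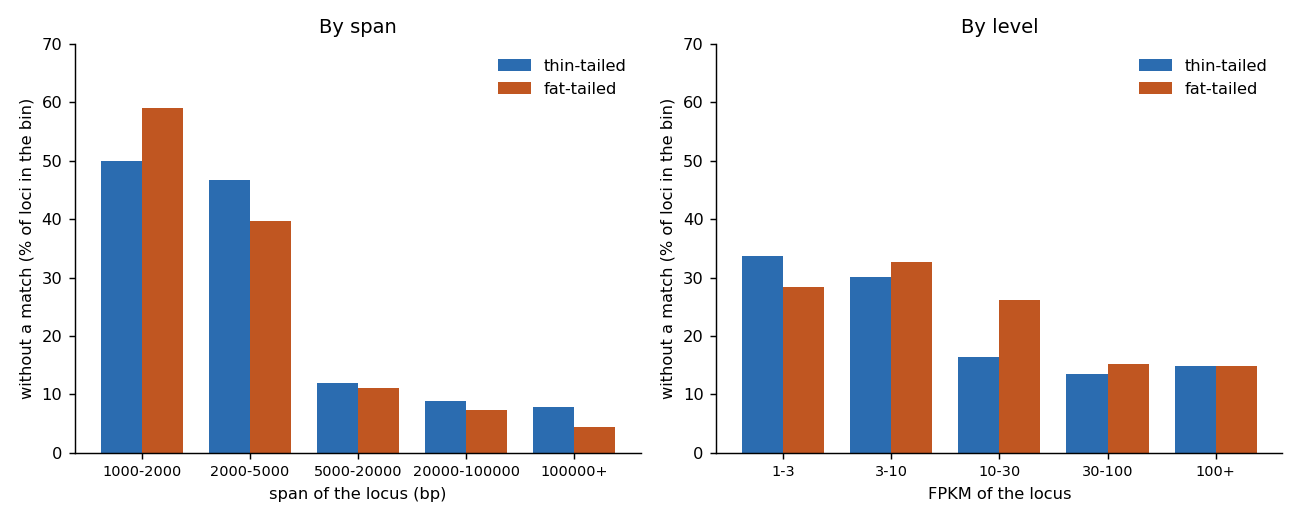
Share of loci that overlapped the other table without a pair, in percent of all loci of 1 FPKM and 1000 bp or more. Loci are divided by span in bp (left) and by FPKM (right). Bars are blue for the thin-tailed and orange for the fat-tailed library. The shares lie between 39.8% and 59.0% below 5000 bp and at 11.9% or lower above it.

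Where 1 locus met 1 locus, the thin-tailed one was usually the longer. It was longer in 1408 of 1775 clusters (79.3%), the fat-tailed locus was longer in 364 (20.5%), and 3 had equal spans. Thin-tailed spans had a median of 2726 bp, fat-tailed ones of 1851 bp, and the median ratio of the spans was 1.44. The longer locus exceeded the shorter by a median of 1109.5 bp where the thin-tailed was longer and by 1280.5 bp where the fat-tailed was. Matched pairs leaned much less to one side, with the thin-tailed locus longer in 4471 of 8193 pairs of unequal span (54.6%), or in 53.8% of 1997 such pairs under 5000 bp.

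The thin-tailed locus was the longer one in most 1-to-1 clusters of each of the 27 chromosomes, from 71.0% on chromosome 21 to 89.6% on chromosome 15. Leaving aside 12 clusters whose loci shared 80% or more, at least 90% of the fat-tailed locus lay inside the thin-tailed one in 1304, the reverse held in 310, and neither did in 149. Over all 1775 clusters, only the low end lay within 100 bp in 623, only the high end in 669, both ends in 6 and neither in 477. The shared part of the longer span had a median of 62.2% (quartiles 48.1% and 72.6%), and 563 clusters lay between 70% and the threshold of 80%. In 292 of the 1408 clusters with a longer thin-tailed locus, the fat-tailed table listed a further locus above 0 beside its shorter one, within the thin-tailed span. The reverse was seen in 88 of 364 clusters. The part that the libraries' depth and the assembly played in these lengths was not tested.

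**Figure D2:**
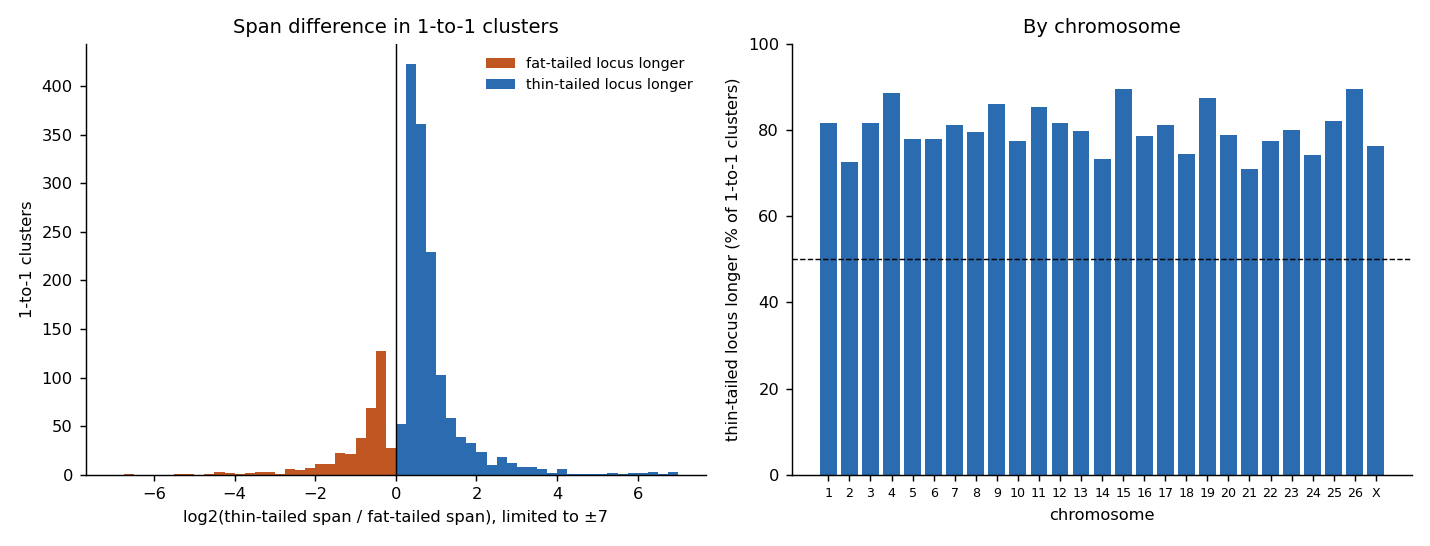
Left, number of 1-to-1 clusters by the log2 ratio of thin-tailed to fat-tailed span (blue where the thin-tailed locus was longer, orange where the fat-tailed was). Right, percent of 1-to-1 clusters with a longer thin-tailed locus on each chromosome, with a dashed line at 50%. The bars run from 71.0% to 89.6%.

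The 3 most abundant 1-to-1 clusters on chromosomes exceeded 5000 FPKM in both libraries. On chromosome 5 (16213320 to 16218609) a thin-tailed locus of 5285 bp at 8113 FPKM (7770 to 8457) faced a fat-tailed locus of 1236 bp at 13558 FPKM (13040 to 14077), where brackets give the deposited interval. Much of the rest of the thin-tailed span was overlapped in the fat-tailed table by the end of a 199800 bp locus at 33.1 FPKM (16017238 to 16217037), a locus that the thin-tailed table listed with the same ends at 0. On chromosome 2 (2155950 to 2203443) the fat-tailed locus was the longer, 47494 against 31186 bp. It read 9708 FPKM (9376 to 10040) against 6119 (5936 to 6301). The fragments implied by the interval widths, a measure described below, went the other way, 3416 against 4502. On chromosome 5 (4381459 to 4383786) both loci began at the same base and ended apart. The thin-tailed locus read 5837 FPKM (5640 to 6034) over 2328 bp, the fat-tailed one 6193 (6075 to 6312) over 1361 bp. They differed 1.06-fold, with intervals that did not overlap.

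**Figure D3:**
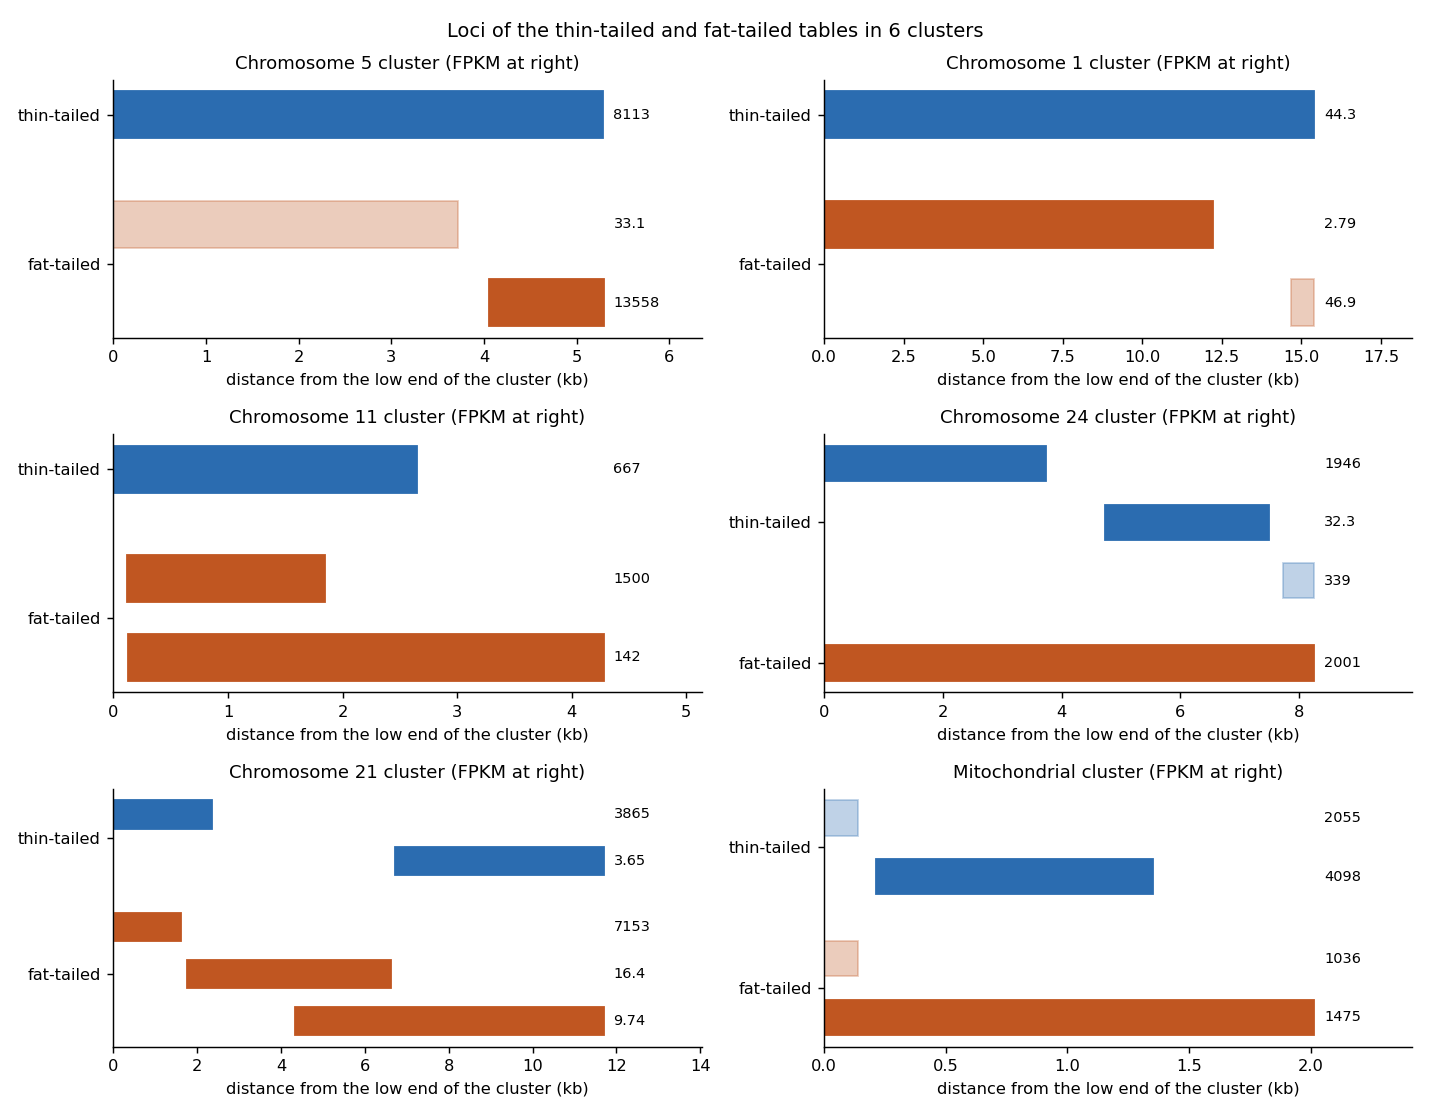
Loci of the thin-tailed (blue) and fat-tailed (orange) tables in 6 clusters, plotted by distance in kb from the low end of the cluster, with the FPKM of each locus at right. Full colour marks loci of the set, pale colour other loci of at least 1 FPKM, and loci are clipped to the cluster. In the chromosome 1 panel the fat-tailed level of 46.9 FPKM sits in a short separate piece and 2.79 FPKM in the longer locus.

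Splits in the fat-tailed library outnumbered splits in the thin-tailed library, 221 against 128. Nearly all had 2 pieces, 206 of the 221 and 120 of the 128, and the most pieces were 5 and 4. The pieces lay side by side in 167 of the 221 fat-tailed splits (75.6%) and overlapped each other in 54. In the thin-tailed splits 57 of 128 (44.5%) were side by side and 71 overlapped. For 2 pieces side by side the median gap was 451 bp (quartiles 131.25 and 1327.75, 160 clusters) in the fat-tailed and 152 bp (86 and 537, 57 clusters) in the thin-tailed library. The pieces covered a median of 80.5% and 96.8% of the whole locus. In 6 and 8 clusters pieces carried the same name in the table.

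Pieces of 1 split locus often had unequal levels. The highest piece exceeded the lowest by a median of 3.44-fold in the fat-tailed and 2.75-fold in the thin-tailed splits. It did so by 2-fold or more in 153 of 221 and 79 of 128 clusters, and by 10-fold or more in 34 and 18. The whole locus of the other library lay between its lowest and highest piece in 125 of 221 and 55 of 128 clusters. It lay below all pieces in 37 and 21, and above all of them in 59 and 52.

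In the most abundant splits, most of the FPKM sat in 1 piece. On chromosome 11 (41390697 to 41394975) the thin-tailed locus of 2649 bp read 667 FPKM (636 to 698). The fat-tailed library had 2 overlapping loci there, 1 of 1728 bp at 1500 FPKM (1418 to 1583) and 1 of 4152 bp at 142 FPKM (135 to 148). Summed, the fat-tailed value was 2.46-fold higher, and averaged by span it was 1.23-fold lower. Implied fragments were 1318 for the piece at 1500 FPKM and 1678 for the piece at 142 FPKM. On chromosome 14 (56082493 to 56384594) a thin-tailed locus of 302102 bp at 2853 FPKM (2721 to 2984) faced fat-tailed pieces of 28074 bp at 1281 FPKM (1218 to 1344) and 4646 bp at 403 FPKM (356 to 449), side by side at its high end. Here the fat-tailed sum was 1.69-fold lower and its span-weighted mean 2.47-fold lower. Its implied fragments were 1.03-fold higher, 1941 against 1882 in the thin-tailed library. On chromosome 18 (20189737 to 20295052) a thin-tailed locus of 105165 bp at 423 FPKM (409 to 437) faced pieces of 15237 bp at 306 FPKM (294 to 318) and 1363 bp at 19.8 FPKM (17.1 to 22.5).

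In the other direction, a fat-tailed locus on chromosome 24 (26132236 to 26140497) of 8258 bp read 2001 FPKM (1940 to 2063). The thin-tailed table split it into 3740 bp at 1946 FPKM (1868 to 2024) and 2776 bp at 32.3 FPKM (26.1 to 38.4). By sum the libraries differed 1.01-fold, and by span-weighted mean 1.77-fold. A matched pair of 1126 bp lay over the high end, at 339 FPKM in the thin-tailed table and listed at 0 in the other, and is not in these sums. On chromosome 11 (38974737 to 39272197) a fat-tailed locus of 297461 bp read 6820 FPKM (6581 to 7060). Its thin-tailed counterparts were a 3600 bp locus at its high end with 4796 FPKM (4635 to 4957) and a 1365 bp locus with 1.66 FPKM (0.738 to 2.58). The long fat-tailed locus also ran across 5 thin-tailed loci of 1 FPKM or more that had pairs of their own. The fat-tailed table listed their partners separately too, at 4.22 to 9194 FPKM, so the long span crossed separate loci of both tables.

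By FPKM, the 3 most abundant clusters with several loci in both tables each held 1 locus far above the others in either library. On chromosome 21 (42643833 to 42655527) the thin-tailed one had 2362 bp at 3865 FPKM (3710 to 4020) and the fat-tailed one 1571 bp at 7153 FPKM (6888 to 7417). The other thin-tailed member read 3.65 FPKM, the other fat-tailed ones 16.4 and 9.74 FPKM. On chromosome 7 (99921581 to 99945667) thin-tailed loci of 2944 bp at 295 FPKM (289 to 301) and 6178 bp at 1898 FPKM (1813 to 1982) lay apart, while both fat-tailed loci, at 1674 FPKM (1608 to 1739) and 255 FPKM (243 to 268), ran across the whole region. A second cluster on chromosome 21 (48878031 to 49007084) held a thin-tailed locus of 129054 bp at 1052 FPKM (1011 to 1093) and a fat-tailed locus of 4031 bp near its high end at 1552 FPKM (1477 to 1627). Both lay inside a matched pair of 137260 bp, at 2262 FPKM (thin-tailed) and 3644 FPKM (fat-tailed).

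Levels in clusters were compared as the log2 ratio of fat-tailed to thin-tailed FPKM, each averaged over the loci of a cluster by span, with 1 FPKM added. Span is the whole stretch of a locus and not the transcript length to which FPKM is scaled, so long loci weigh most. Ratios of low values are understated on this scale. Of the 2217 clusters, 280 (12.6%) had fat-tailed values higher by 2-fold or more and 165 (7.44%) lower by as much. Among 9814 matched pairs that met the same minimum in both tables, 7.09% were higher and 10.4% lower. The median log2 ratio was 0.20 over clusters (quartiles -0.27 and 0.65) and -0.10 over matched pairs (-0.53 and 0.33). Centring on the median of matched pairs of any length with 1 FPKM or more in at least 1 table, a shift of 0.12, raised the higher share of the calls from 62.9% to 73.0%.

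This lean did not hold for all lengths or measures. With a span minimum of 5000 bp, 47 of 537 clusters were higher (8.75%) and 84 lower (15.6%), with a median of -0.21. Matched pairs of that length leaned the same way, with 7.41% of 7356 higher, 11.4% lower and a median of -0.15. A second measure is the number of fragments that the width of each deposited interval implies if counting error alone set it. By these implied fragments 202 clusters were higher (9.11%) and 270 lower (12.2%), with a median of -0.13, against 5.62% and 11.9% of matched pairs and a median of -0.16. The measure has limits, since the chromosome 5 locus at 4381459 gave 3500 implied fragments at 5837 FPKM and 10909 at 6193 FPKM. FPKM and implied fragments agreed in sign for 60.7% of the 1-to-1 clusters and 78.2% of the matched pairs.

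**Figure D4:**
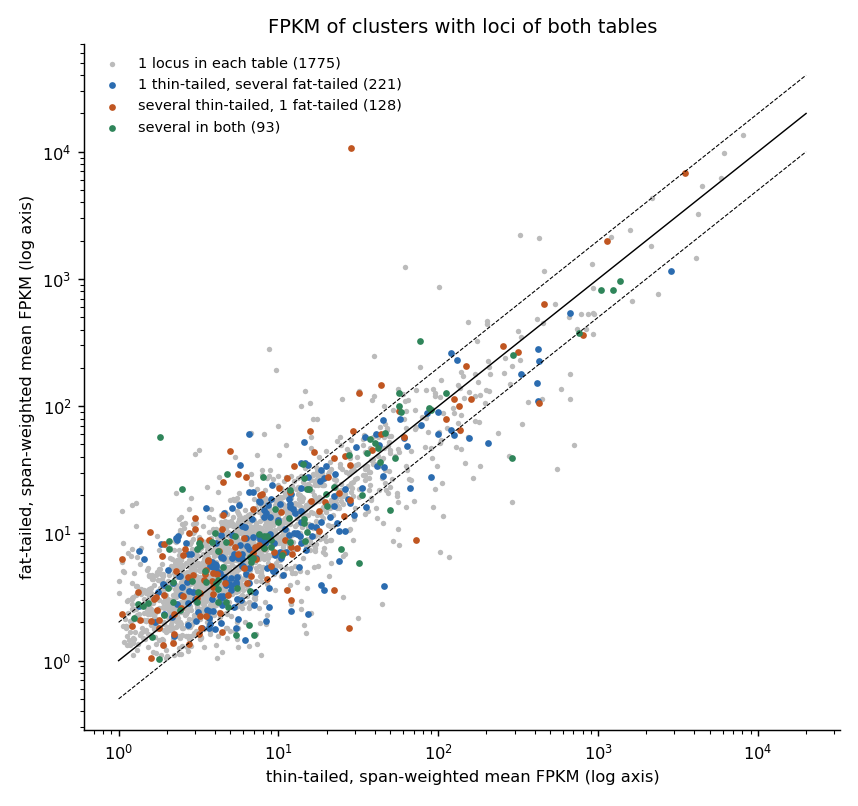
Span-weighted mean FPKM of the 2217 clusters with loci of both tables, thin-tailed on the horizontal and fat-tailed on the vertical axis, both logarithmic, coloured by the number of loci on each side. The solid line marks equal values and the dashed lines 2-fold differences. The point farthest above the line, at 10779 FPKM on the vertical axis, is the cluster on chromosome 20 with several thin-tailed loci and 1 fat-tailed locus.

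The 1-to-1 clusters have a single value on each side and so do not depend on how pieces are added. Of these 1775, 212 (11.9%) had a fat-tailed level 2-fold higher and 121 (6.82%) a lower one, with a median log2 ratio of 0.22. The shares of matched pairs were 7.09% and 10.4%. The fat-tailed interval lay wholly above the thin-tailed one in 564 (31.8%) and below it in 267 (15%), against 20.5% and 30.8% of matched pairs. Where the thin-tailed locus was longer the median log2 ratio of FPKM was 0.28, and that of implied fragments -0.28. Where the fat-tailed locus was longer they were 0.04 and 0.35. Implied fragments thus went with the longer locus, and FPKM did not. In 1185 clusters with both loci under 5000 bp, where the median was 0.33 against 0.03 in 2404 matched pairs, 11.3% were higher and 3.63% lower. The background shares were 6.07% and 7.11%. Over these 1185 clusters the Spearman correlation of the FPKM ratio with the thin-to-fat span ratio was 0.26. Over all 1775 it was lower, at 0.12. Clusters share both libraries and their depth, so both values are a description.

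For split loci the ratio moved with the way of adding pieces. All 4 measures had the same sign in 97 of 221 and 64 of 128 such clusters. With 1 thin-tailed and several fat-tailed loci, the median log2 ratio was 0.01 by span-weighted mean, 1.00 by sum and 0.64 by highest piece. With several thin-tailed and 1 fat-tailed locus it was 0.24, -0.62 and -0.18. By sum, the fat-tailed value was 2-fold higher in 110 of 221 and 7 of 128 clusters, and lower in 1 and 44. The corresponding shares by sum over all 2217 clusters were 15.5% and 7.67%, and by highest piece 14.3% and 6.99%. The mean and the sum had opposite signs in 87 of 221 and 46 of 128 clusters. By implied fragments the medians were 0.22 and -0.24. Over all 2217 clusters, 78 (3.52%) were 2-fold higher and 78 (3.52%) 2-fold lower by each of the 4 measures. Among matched pairs, 2.58% were higher and 5.6% lower by both FPKM and implied fragments.

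**Figure D5:**
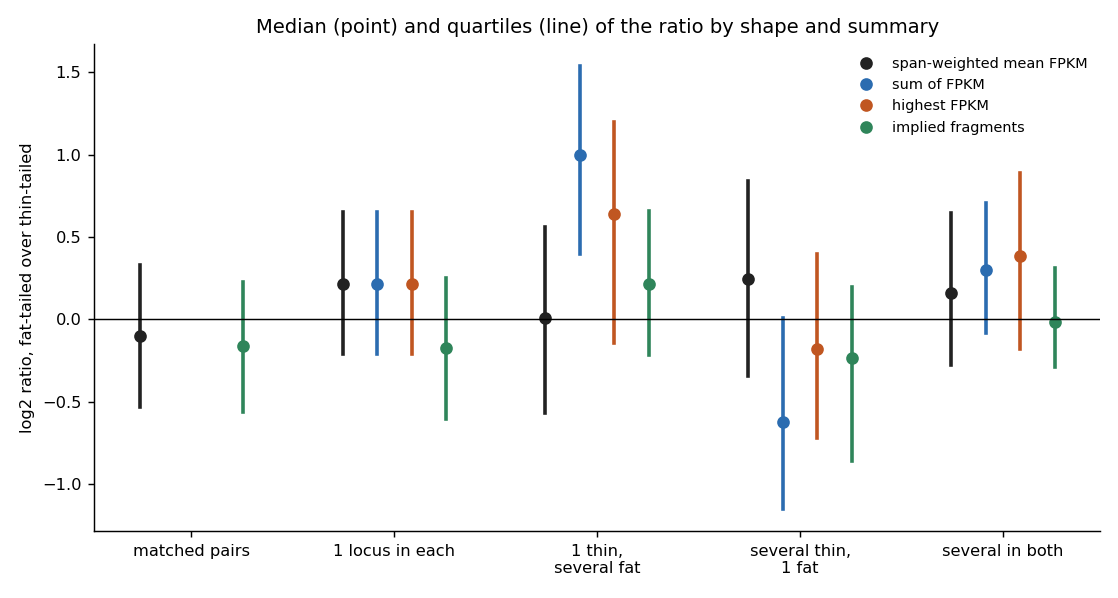
Median (point) and quartiles (line) of the log2 ratio of fat-tailed over thin-tailed values, by shape of the cluster and by 4 ways of summarising it, beside the matched pairs, which have 1 FPKM value a side. The median for 1 thin-tailed and several fat-tailed loci moves from 0.01 by span-weighted mean to 1.00 by sum, and for the opposite shape from 0.24 to -0.62.

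The next clusters were chosen for their ratio, among those on assembled chromosomes that stood at 20 FPKM or more in at least 1 library and had the same sign by each measure. Clusters outside this selection reached lower ratios by FPKM. The largest ratio was on chromosome 20 (27598030 to 27769498), the chromosome that carries the sheep major histocompatibility complex, a dense region of immune genes with many similar copies. There a fat-tailed locus of 91478 bp read 10779 FPKM (10203 to 11355). The 4 thin-tailed loci read 295 FPKM (141 to 449) over 8791 bp, and 58.4 (34.4 to 82.3), 7.80 (3.73 to 11.9) and 5.98 (2.12 to 9.84) over about the whole region. The fat-tailed value was 29.4-fold higher by sum, 377-fold by span-weighted mean and 22.3-fold by implied fragments, and no thin-tailed interval reached it. The span-weighted thin-tailed mean was 28.6 FPKM, since the long loci of low level weighed most in it. The thin-tailed values rested on 9.59 to 23.7 implied fragments each. A matched pair at 27675151 to 27678490, inside the fat-tailed locus, read 39.5 FPKM in the thin-tailed table and was listed at 0 in the other. The matched pairs at the borders of the cluster were higher in the fat-tailed library, 584 against 1385 FPKM at 27766028 and 33.6 against 83.2 FPKM at 27596843. How fragments were shared among these overlapping loci was not tested.

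On chromosome 14 (49428376 to 49544124) a thin-tailed locus of 115745 bp read 8.76 FPKM (5.93 to 11.6) and a fat-tailed one of 115312 bp 281 FPKM (231 to 330). The FPKM differed 32.0-fold and the implied fragments 3.37-fold. A matched pair with almost the same ends lay over them, at 195 FPKM (thin-tailed) and 288 FPKM (fat-tailed), so which of the overlapping loci received the fragments bears on the ratio and was not tested. On chromosome 16 (33597632 to 33601077) a thin-tailed locus of 3446 bp at 62.3 FPKM (57.8 to 66.8) faced a fat-tailed locus of 2580 bp at 1234 FPKM (1158 to 1311). The FPKM differed 19.8-fold and the implied fragments 1.34-fold.

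The lowest ratio within this selection was on chromosome 3 (218675951 to 218677531). The thin-tailed locus of 1581 bp read 117 FPKM (111 to 123) and the fat-tailed locus of 1207 bp, ending 1 bp short of it, 6.52 FPKM (4.84 to 8.20), 17.9-fold lower, with 1628 against 60.2 implied fragments. On chromosome 13 (76811852 to 76865672) the thin-tailed locus of 53821 bp read 31.6 FPKM (29.3 to 33.9) and the fat-tailed one of 41780 bp 2.17 FPKM (1.44 to 2.89), 14.6-fold lower. On chromosome 1 (188728833 to 188744241) the thin-tailed locus of 15409 bp read 44.3 FPKM (39.2 to 49.4) and the fat-tailed one of 12231 bp 2.79 FPKM (1.82 to 3.75), 15.9-fold lower. Inside the stretch it lacked, the fat-tailed table listed a separate locus of 717 bp at 46.9 FPKM (41.2 to 52.6), below the span minimum. The 15.9-fold difference leaves that locus out.

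Cytochrome b was the only gene in the set that could be named from its position. Its product, encoded in the mitochondrial genome, is the core membrane subunit of complex III of the respiratory chain, and mitochondrial genes are transcribed as long joint precursors that are cut at transfer RNAs. In the thin-tailed library the locus (MT 14159 to 15298) had exactly the ends of CYTB and read 4098 FPKM (4059 to 4137). In the fat-tailed library it ran from 13946 to 15960, holding CYTB whole, the 3 transfer RNA genes beside it, 140 bp of ND6 (26.5% of that gene) and sequence beyond, and read 1475 FPKM (1425 to 1524). The level over this longer span was 2.78-fold lower, and the implied fragments were 12.2-fold lower, 43901 against 3591. ND6, a complex I subunit on the opposite strand, had a matched pair at 2055 FPKM (thin-tailed) and 1036 FPKM (fat-tailed). Fragments of the shared 140 bp cannot be told apart between it and the longer locus.

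The clusters with most loci were also on chromosome 20. The first (27415047 to 27500591) held 6 thin-tailed loci between 3.20 and 13.9 FPKM and 7 fat-tailed loci between 2.08 and 18.9 FPKM. Its sums, 50.3 and 53.3 FPKM, differed 1.06-fold. The second (26943408 to 27020044) held 4 thin-tailed loci between 7.92 and 464 FPKM and 5 fat-tailed loci between 18.3 and 46.4 FPKM. Its sums were 774 and 177 FPKM, and its implied fragments 1500 and 609. The locus of 464 FPKM (439 to 488) spanned 76122 bp of this region in the thin-tailed library, and the fat-tailed locus nearest to it in length, 73341 bp, read 43.3 FPKM (28.6 to 58.0). By FPKM a matched pair over the same region went the other way, at 24.2 (20.3 to 28.1) in the thin-tailed table against 82.1 (34.5 to 130) in the other. Its implied fragments did not, at 154 in the thin-tailed against 11.9 in the fat-tailed table.

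Loci with an Ensembl identifier were shorter than the assembled loci they faced. In 60 1-to-1 clusters the fat-tailed locus carried an identifier and the thin-tailed one was assembled, and the thin-tailed locus was longer in all 60. In 23 the identifier was on the thin-tailed side, and the fat-tailed locus was longer in 22. The median log2 ratio was -0.56 in the first group and 0.27 in the second, so the assembled side was higher in both. Of the first group 1 cluster was 2-fold higher and 17 (28.3%) were lower. Of the second 4 (17.4%) were higher and none lower. Matched pairs showed the same directions. In 338 with the identifier on the fat-tailed side, 0.592% were higher and 31.4% lower, with a median of -0.62. In 197 with it on the thin-tailed side, 17.3% were higher and 1.52% lower, with a median of 0.26. The assembled locus was longer in 202 of the 338 pairs and in 119 of the 197, and the annotated one in 0 of both. The pattern is thus not particular to loci of the set.

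Loci that met no member of the other table fell into 2 kinds, and the libraries differed in the mix. Of 1315 such thin-tailed loci, 670 overlapped a fat-tailed locus that was paired elsewhere, and 500 of these lay at least 90% inside it. The other 645 overlapped unpaired fat-tailed loci that were too short or too low for the rule, with a locus under 1000 bp in 606. Of 1273 such fat-tailed loci, 1054 overlapped a thin-tailed locus paired elsewhere, 883 of them at least 90% inside it, and 219 met short or low loci, with one under 1000 bp in 197. A fat-tailed locus of this kind was thus most often a smaller locus within a longer thin-tailed one. By number of partners of any kind, 2287 of the 3775 thin-tailed loci overlapped exactly 1 fat-tailed locus, 1098 overlapped 2 and 390 overlapped 3 or more. For the 3844 fat-tailed loci these were 2791, 826 and 227. The most partners of 1 locus were 17 and 14.

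Loci of the set occurred on every chromosome at similar rates. Their share of loci of 1 FPKM and 1000 bp or more ran from 21.1% (chromosome 21) to 27.8% (chromosome 26) in the thin-tailed library. In the fat-tailed library it ran from 21.5% (chromosome 21) to 31.6% (chromosome 10). By chromosome the median log2 ratio of clusters lay between -0.05 over 47 clusters on chromosome 10 and 0.52 over 34 on chromosome 25, with 0.41 over 72 on chromosome 20. Unplaced scaffolds held 73 thin-tailed and 55 fat-tailed loci. Loci of the set overlapped another locus of their own table in 37.7% and 31.3% of cases, against 33.6% and 33.7% of paired loci.

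The threshold of 80% drew a line through a continuous range. Just inside the rule, loci on chromosome 8 (thin-tailed 19473505 to 19483955, fat-tailed 19475594 to 19483953) shared 79.99% of the longer span and read 4.41 and 1.67 FPKM. Just outside it, loci on chromosome 12 (thin-tailed 41104286 to 41106550, fat-tailed 41104251 to 41106097) shared 80% and read 5.05 and 4.39 FPKM.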

How the data were processed

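The submitters' processing notes list FastQC, TopHat and Cuffdiff without version or order. Not given in the sources used here are the assembler, build, annotation and library scaling. Per the file headers, the deposited values are FPKM per locus, made by the authors, each with a lower and an upper bound. Deposited starts are counted from 0, judged from mitochondrial gene ends, and 1 was added. The total depth is unknown. Implied fragments are the square of 2 FPKM over the interval's half-width. Overlaps, pairs (28180, with 70 tied pairs dropped) and clusters were computed in Python 3.11.15 with pandas 2.3.3 and numpy 2.4.6, and the code was tested on simulated loci. With 1 library per group no test was made. Called means 2-fold on the log2 scale after adding 1 FPKM. Members and lists were chosen with earlier results of these data known. Named were the mitochondrial cluster, the 3 most abundant of each shape, the 3 highest and 3 lowest ratios among chromosomal clusters of 20 FPKM or more in 1 library with 1 sign by all 4 measures, the 2 with most loci and pairs nearest the threshold. No RefSeq name matched, so the marker lists gave no value except for mitochondrial genes.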

Additional observations from a re-analysis of the deposited data

How the results depend on the processing

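No paired analysis was possible because there was a single library for either tail type, and for the same reason none could be left out. Dropping loci that were tied, or that overlapped their own table, and every alternative for the share of longer thin-tailed loci were chosen after seeing the data. Values follow a fixed order, and for some settings part of them is left out. First come thin-tailed loci, fat-tailed loci, clusters of both tables, fat-tailed splits and thin-tailed splits. Then come clusters 2-fold higher and 2-fold lower in fat-tailed, median log2 ratio, and percent of 1-to-1 clusters with the thin-tailed locus longer. As reported these were 3775, 3844, 2217, 221, 128, 280, 165, 0.20 and 79.3%. With pairs at 50% overlap they were 1707, 2061, 635, 101, 49, 107, 74, 0.093 and 73.7%. With pairs at 90% they were 4957, 4904, 3221, 294, 167, 368, 241, 0.16 and 75.7%. A minimum of 5 FPKM gave 1757, 2320, 1160, 77, 44, 141 and 97 for the first 7. Without an FPKM minimum the values were 3913, 4072, 2350, 298, 138, 261, 233, 0.15 and 78.3%. Without a span minimum there were 5290 thin-tailed and 6494 fat-tailed loci, 3801 clusters of both tables, and 475 and 214 splits. This setting gave 549 higher and 289 lower, a median of 0.27 and 73.8%. With a minimum of 5000 bp the values were 933, 727, 537, 21, 16, 47, 84, -0.21 and 75.8%, so the median changed sign. Adding 5 FPKM gave 120 higher, 98 lower and a median of 0.13. The median was 0.25 by sum, 0.24 by highest piece and 0.32 after centring on matched pairs. Implied fragments gave 202 higher, 270 lower and a median of -0.13, again with the sign changed. Loci overlapping no other of their own table gave 2350 thin-tailed loci, 1470 clusters, 118 and 40 splits, 149 higher, 85 lower and 82.7%. The higher share of all 2-fold calls was 62.9% as reported, 73.0% centred, 52.8% without FPKM minimum, 42.8% by implied fragments and 35.9% with the 5000 bp minimum. The cause of these shifts was not tested. With 0.1 FPKM added, 369 clusters were higher and 203 lower, with a median of 0.24. Equal totals gave 262 and 170, and dropping tied loci 279 and 165. The thin-tailed locus was the longer in most 1-to-1 clusters under each rule tried.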
